A study of Mus musculus with 16 samples.

Results

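The nuclear-encoded genes of respiratory complexes II, III and IV were followed in mouse skeletal muscle. They were named by symbol, with earlier results of these data known, and comprised 34 genes among the 28972 genes tested: 4 subunits of complex II, 9 of complex III, cytochrome c itself, 13 subunits of complex IV and 7 factors that assemble complex IV. All 34 were represented on the array. Total RNA came from dissected, frozen muscle of male mice aged 21 to 23 weeks, and the labels do not name the muscle. Wild-type controls (WT, Skm-CB1R+/+) were littermates of knockout mice (CB1KO, Skm-CB1R-/-) whose muscle fibres lose cannabinoid receptor 1. The knockouts carry a LoxP-flanked Cnr1 gene and a Cre recombinase under the ACTA1 promoter, a promoter active in skeletal muscle fibres. Each genotype received for 15 weeks either a standard diet (SD, 16.7% of energy as fat and 12.4% as sugar) or HFHS, a diet rich in fat (49.2%) and sugar (32.2%), with 4 mice and 4 one-colour Agilent arrays in each of the 4 groups. Groups follow the sample titles: the diet tag contradicts them for CB1KO_SD and WT_HFHS, the breeding text lists both genotypes as Cre-positive, and the treatment text names an assignment to vehicle or to S961, an insulin receptor antagonist, that no sample label repeats.

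Complex II (succinate dehydrogenase) passes electrons from succinate to ubiquinone and is also an enzyme of the citric acid cycle. Complex III moves them from ubiquinol to cytochrome c, and complex IV (cytochrome c oxidase) hands them to oxygen, with complexes III and IV pumping protons that drive ATP synthesis. In skeletal muscle these complexes are most abundant in oxidative fibres, they are raised by endurance exercise, and striated muscle replaces some general complex IV subunits with isoforms of its own.

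Levels are log2 processed signal relative to the 75th percentile of the same array, so 0 is that percentile and 1 unit is a doubling. Levels of different genes come from different probes and are not compared. Detection was broad, with 56.7% to 75% of non-control spots called well above background per array and none saturated. All 15 skeletal muscle markers, among them Acta1, Ckm and Ttn, were well above background on all 16 arrays. All SD arrays lay on 1 slide and all HFHS arrays on another, and the effects of diet and of slide cannot be told apart. On both slides the WT arrays lay in row 1 and the CB1KO arrays in row 2, so in every genotype comparison the genotype and the row on the slide cannot be told apart. The SD of log2 signal within an array was lowest on CB1KO_SD replicate 2 (2.89) and highest on CB1KO_HFHS replicate 1 (3.97), with the remaining arrays at 3.14 to 3.69. The targeted gene, Cnr1, read -3.64 to -2.03 in WT_SD, -3.69 to -2.23 in CB1KO_SD, -3.18 to -1.75 in WT_HFHS and -2.93 to -1.49 in CB1KO_HFHS. Whether its probe lies in the deleted stretch is not known here, so it does not check the genotype labels.

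The 34 genes had 50 probes, of which 49 passed the filter, which asked for detection well above background on 4 or more arrays. For 23 genes 1 probe passed and for 11 genes several did, and the brightest then stood for the gene. A total of 33 genes were well above background on all 16 arrays, so for them the filter chose no group. The exception was Cox17, a copper chaperone that supplies complex IV assembly. It stood well above background on 6 arrays: 1 of WT_SD, 0 of CB1KO_SD, 3 of WT_HFHS and 2 of CB1KO_HFHS. Cox17 read -3.57, -4.96, -4.12 and -3.66 in WT_SD, -6.56, -2.67, -5.55 and -5.29 in CB1KO_SD, -4.85, -4.51, -4.33 and -4.08 in WT_HFHS and -7.33, -4.12, -4.89 and -3.29 in CB1KO_HFHS. These readings lie near the detection limit and overlap in all 4 groups, so no fold change is given for it. Counts and medians below are over the other 33 genes.

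In no comparison did a gene of complexes II to IV pass the test. With limma and Benjamini-Hochberg adjustment over all genes at 0.05, 0 of 33 were called for CB1KO against WT on SD, on HFHS or averaged over the diets, for HFHS against SD in WT or in CB1KO, or for the genotype-by-diet interaction. Among all genes the same comparisons called 1 (0.00345%), 72 (0.249%), 221 (0.763%), 0 (0%), 8 (0.0276%) and 0 (0%). The smallest adjusted p of a respiratory gene in these comparisons was 0.811, 0.286, 0.230, 0.930, 0.491 and 1.00. At an unadjusted p below 0.05, 0, 8, 3, 0, 3 and 1 of the 33 genes remained, and every one of them lay lower in the first-named group (for the interaction, below 0). Of all genes, 6.84%, 5.97%, 11.3%, 3.96%, 4.22% and 1.53% met that criterion in the lower direction. With the deposited scores 0 of 33 had such a p on HFHS (smallest limma adjusted p 0.659) and 0 averaged over the diets (0.599). There 8.14% and 12% of all genes had one in either direction. In CB1KO between the diets 6 of 33 had one with these scores, against 10.8% of all genes in either direction. These counts take the brightest probe of each gene: on HFHS another probe of Sdhc, Uqcrb, Uqcr10 and Cox7c also gave such a p, in each case lower in CB1KO, with limma adjusted p of 0.412 to 0.531.

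The absence of calls was bounded by the intervals. On SD the 95% interval of CB1KO minus WT lay within 1 log2 unit of 0 for all 33 genes, and on HFHS for 32, with Cox10 the exception at -1.25 to 0.23. Within 0.5 log2 units of 0 lay the intervals of 26 genes on SD and of 7 on HFHS, where that of Cycs reached -0.84. The SD within groups had a median of 0.21 over these genes (0.13 to 0.51) and of 0.35 over all genes.

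**Figure D1:**
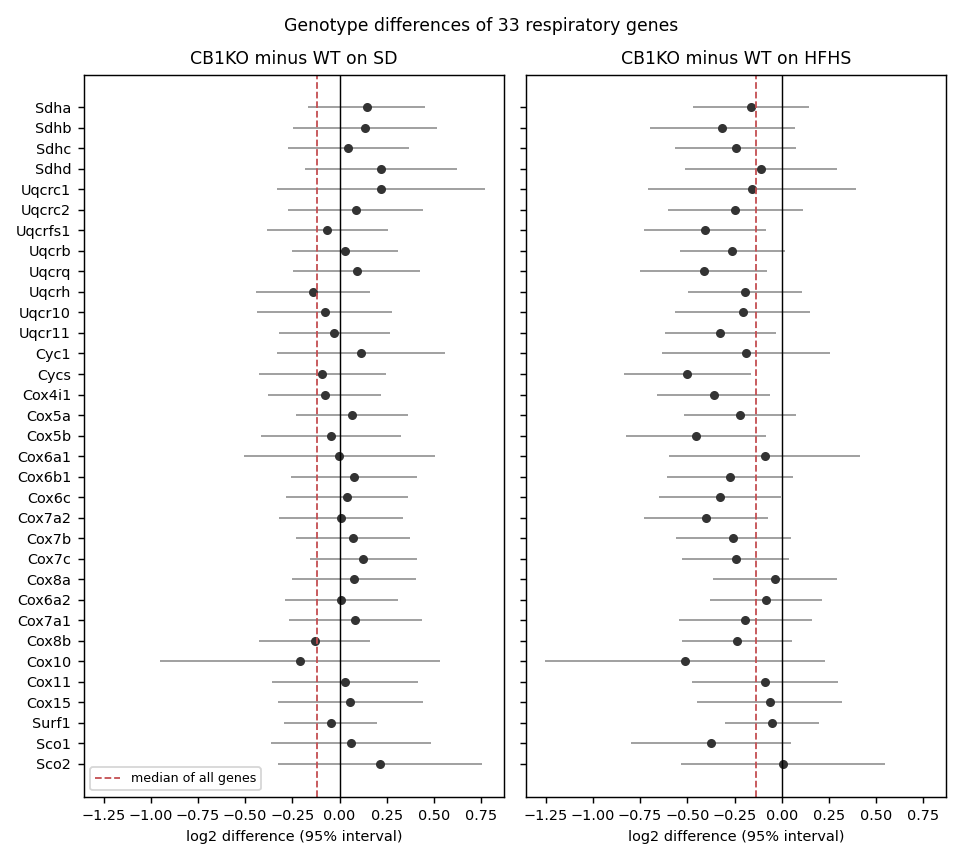
Log2 difference between CB1KO and WT for the 33 respiratory genes on the standard diet (left) and the HFHS diet (right), with points for the estimates, bars for their 95% intervals and a dashed line for the median of all genes. On SD the points lie on both sides of 0, with 11 below it, and on HFHS 32 of 33 lie below 0.

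The direction of the differences was not the same on both diets. On SD 22 of the 33 genes were higher in CB1KO and 11 lower, with a median log2 difference of 0.05. On HFHS 32 were lower and only Sco2 was not, with a median of -0.24. Most genes on the array leaned the same way under this scaling: 67.9% of all genes were below 0 on SD and 68.6% on HFHS, with medians of -0.12 and -0.14. Set against those medians, 3 of the 33 respiratory genes lay below the median gene on SD and 25 on HFHS. With quantile normalization the counts below 0 became 1 of 33 on SD and 28 of 33 on HFHS, and the medians of these genes 0.15 and -0.14, while the median of all genes moved to -0.06 and -0.04. With normexp background correction and quantile normalization the counts were 3 and 29 and the medians 0.14 and -0.12, and the median of all genes on HFHS moved by more than 0.1, to -0.02. Averaged over the diets, 29 of 33 genes were lower in CB1KO with a median of -0.09, near the -0.13 of all genes (72.1% below 0), and this median turned to 0.02 with quantile normalization and to 0.01 with normexp. In bulk tissue, fewer muscle fibres rich in mitochondria and less of each RNA per fibre cannot be told apart.

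Complex II is built from Sdha, the flavoprotein that oxidises succinate, Sdhb, the iron-sulphur subunit, and the membrane anchors Sdhc and Sdhd. On SD all 4 were higher in CB1KO, by 0.05 to 0.22 on the log2 scale, and on HFHS all 4 were lower, at -0.32 (Sdhb) to -0.11 (Sdhd). By the probe that stood for each gene, none had an unadjusted p below 0.05 in any comparison. The other Sdhc probe gave -0.35 ± 0.15 (SE) on HFHS (unadjusted p = 0.0396, limma adjusted p = 0.517) and -0.50 ± 0.22 for the interaction (unadjusted p = 0.0375). For Sdhd the arrays gave 6.65, 6.98, 6.12 and 6.59 in WT_SD, 6.74, 6.51, 7.10 and 6.87 in CB1KO_SD, 6.75, 6.90, 7.04 and 6.80 in WT_HFHS and 6.68, 7.11, 6.50 and 6.75 in CB1KO_HFHS. WT_SD replicate 3 was the lowest of all arrays, and every pair of groups overlapped. CB1KO minus WT was 0.22 ± 0.19 (SE) for Sdhd on SD (limma adjusted p = 0.811). Sdha read 5.89, 6.17, 6.18 and 6.06 in WT_SD, 6.20, 6.04, 6.36 and 6.28 in CB1KO_SD, 5.996, 6.38, 6.31 and 6.10 in WT_HFHS and 5.65, 6.13, 6.21 and 6.14 in CB1KO_HFHS. Its lowest value was on CB1KO_HFHS replicate 1, and the other 3 arrays of that group lay inside the range of WT_HFHS. The Sdha difference was 0.14 ± 0.14 on SD (adjusted p = 0.847) and -0.16 ± 0.14 on HFHS (adjusted p = 0.744).

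In complex III, Uqcrc1 and Uqcrc2 are the core proteins, Uqcrfs1 the Rieske iron-sulphur protein and Cyc1 cytochrome c1, and Uqcrb, Uqcrq, Uqcrh, Uqcr10 and Uqcr11 are small subunits. On SD 5 of these 9 genes were higher in CB1KO and 4 lower, from -0.14 (Uqcrh) to 0.22 (Uqcrc1). On HFHS all 9 were lower, from -0.41 (Uqcrq) to -0.16 (Uqcrc1), and 3 of them (Uqcrfs1, Uqcrq and Uqcr11) had an unadjusted p below 0.05. The Uqcrfs1 levels were 7.004, 7.26, 6.98 and 7.03 (WT_SD), 6.84, 6.74, 7.21 and 7.23 (CB1KO_SD), 6.90, 7.21, 7.27 and 7.13 (WT_HFHS) and 6.45, 6.94, 6.82 and 6.67 (CB1KO_HFHS). The highest CB1KO_HFHS array stood just above the lowest WT_HFHS array, so the groups overlapped by 1 array. For Uqcrfs1, CB1KO minus WT on HFHS was -0.41 ± 0.15 (SE, limma adjusted p = 0.397, exact permutation p = 0.0571), against -0.06 ± 0.15 on SD. For Uqcrq the arrays gave 7.85, 8.15, 7.78 and 7.81 in WT_SD, 7.79, 7.75, 8.16 and 8.27 in CB1KO_SD, 7.83, 8.15, 8.32 and 8.12 in WT_HFHS and 7.58, 7.94, 7.66 and 7.57 in CB1KO_HFHS. Again only CB1KO_HFHS replicate 2 reached into the WT_HFHS range. The Uqcrq difference was -0.41 ± 0.16 on HFHS (adjusted p = 0.412, exact permutation p = 0.0571) and 0.09 ± 0.16 on SD, and both of its probes gave -0.43 and -0.41 on HFHS but -0.06 and 0.09 on SD. Uqcrh read 8.14, 8.45, 8.33 and 8.24 in WT_SD, 7.82, 8.16, 8.28 and 8.34 in CB1KO_SD, 8.13, 8.43, 8.51 and 8.34 in WT_HFHS and 7.96, 8.36, 8.11 and 8.18 in CB1KO_HFHS. The hinge protein gene Uqcrh had its lowest array in CB1KO_SD replicate 1 and overlapped between all groups, with -0.14 ± 0.14 on SD (adjusted p = 0.844). Its other probe gave -0.02 on SD and 0.00 on HFHS, where the brightest gave -0.20.

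Cytochrome c, encoded by Cycs, carries electrons from complex III to complex IV and had the smallest p among these genes on HFHS. The Cycs levels were 7.54, 7.81, 7.72 and 7.62 (WT_SD), 7.54, 7.29, 7.70 and 7.80 (CB1KO_SD), 7.56, 7.90, 7.98 and 7.52 (WT_HFHS) and 7.16, 7.50, 7.34 and 6.97 (CB1KO_HFHS). On HFHS the 4 knockout arrays all lay below the 4 wild-type arrays, though the gap between 7.50 and 7.52 was small, and on SD the genotypes overlapped. CB1KO minus WT on HFHS was -0.50 ± 0.16 (SE), a linear ratio of 0.706 (limma adjusted p = 0.286). The exact permutation p of 0.0286 is the smallest that 4 arrays against 4 can give. Averaged over the diets the Cycs difference was -0.30 ± 0.11 (adjusted p = 0.230), and on SD it was -0.09 ± 0.16 (adjusted p = 0.918). Of the other Cycs probes, 1 gave -0.37 on HFHS and -0.0048 on SD, and a dim one gave -0.34 and 0.98. Only 3 of the 33 genes had groups that did not overlap on HFHS (Cycs, Cox7a2 and the assembly gene Sco1, all lower in CB1KO), beside 6.92% of all genes that did so lower and 3.16% that did so higher, and on SD 0 of 33 did against 3.18% lower and 1.03% higher among all genes.

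**Figure D2:**
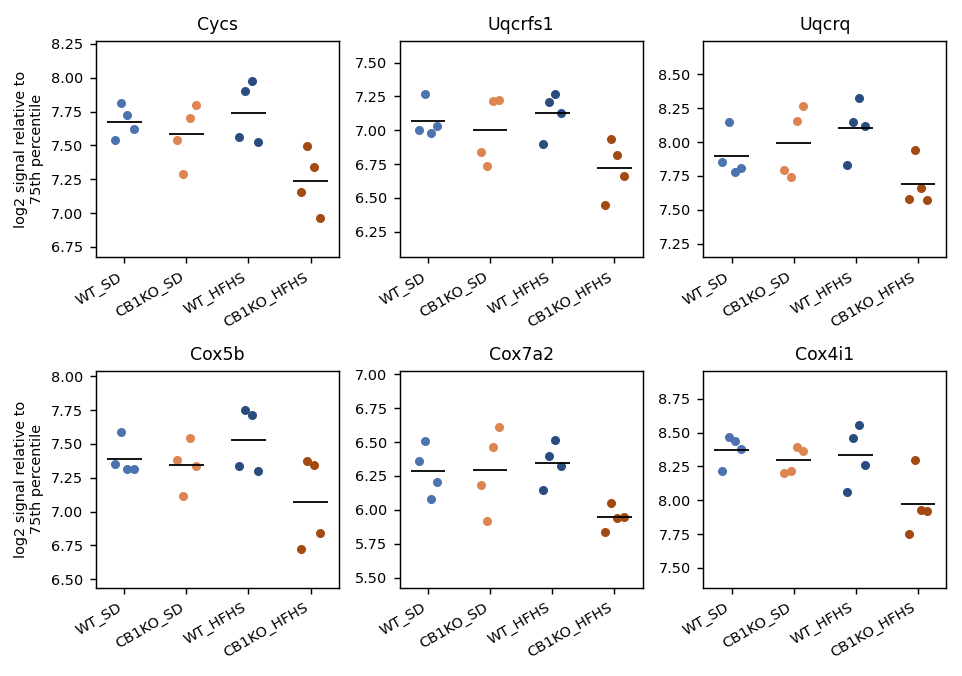
Log2 signal relative to each array's 75th percentile for the 6 respiratory genes with the smallest p for CB1KO against WT on HFHS, with 1 point per array and a line at each group mean (n = 4). For Cycs and Cox7a2 the 4 CB1KO_HFHS points lie below all 4 WT_HFHS points, and for the other genes shown at least 1 point reaches into the WT_HFHS range.

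Complex IV has 10 nuclear-encoded subunits here that are found in most tissues. On SD 7 of them were higher in CB1KO and 3 lower, all within -0.08 to 0.13. On HFHS all 10 were lower, from -0.45 (Cox5b) to -0.04 (Cox8a), and Cox5b, Cox7a2, Cox4i1 and Cox6c had an unadjusted p below 0.05. For Cox5b the arrays gave 7.35, 7.59, 7.31 and 7.31 in WT_SD, 7.38, 7.12, 7.54 and 7.34 in CB1KO_SD, 7.34, 7.75, 7.71 and 7.30 in WT_HFHS and 6.73, 7.38, 7.34 and 6.84 in CB1KO_HFHS. The CB1KO_HFHS arrays fell into a lower pair, replicates 1 and 4, and a pair within the WT range. Cox5b, a zinc-binding subunit facing the matrix, differed by -0.45 ± 0.17 on HFHS (SE, limma adjusted p = 0.412, exact permutation p = 0.171). The Cox4i1 levels were 8.21, 8.47, 8.44 and 8.38 (WT_SD), 8.20, 8.22, 8.40 and 8.36 (CB1KO_SD), 8.06, 8.46, 8.56 and 8.26 (WT_HFHS) and 7.75, 8.30, 7.93 and 7.92 (CB1KO_HFHS). Replicate 2 of CB1KO_HFHS lay inside the WT_HFHS range and the other 3 lay below it. Cox4i1, the largest nuclear-encoded subunit, differed by -0.36 ± 0.14 on HFHS (adjusted p = 0.422) and -0.08 ± 0.14 on SD (adjusted p = 0.922).

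Cox5a read 8.55, 8.84, 8.45 and 8.55 in WT_SD, 8.47, 8.56, 8.75 and 8.89 in CB1KO_SD, 8.35, 8.67, 8.71 and 8.65 in WT_HFHS and 8.26, 8.61, 8.35 and 8.29 in CB1KO_HFHS. CB1KO_HFHS replicate 2 lay inside the WT_HFHS range and the other 3 at or below its lower end. Cox5a, a matrix-facing subunit, differed by -0.22 ± 0.14 (SE) between genotypes on HFHS (limma adjusted p = 0.658) and by -0.29 ± 0.14 between the diets within CB1KO (adjusted p = 0.524). The Cox6c levels were 7.84, 7.96, 7.55 and 7.70 (WT_SD), 7.58, 7.62, 7.94 and 8.08 (CB1KO_SD), 7.75, 8.07, 8.12 and 7.97 (WT_HFHS) and 7.50, 7.92, 7.58 and 7.60 (CB1KO_HFHS). WT_HFHS stood slightly above the other groups, with overlap throughout. Cox6c, a small subunit that spans the inner membrane, differed by -0.33 ± 0.15 between genotypes on HFHS (adjusted p = 0.523). For Cox7c the arrays gave 6.53, 6.78, 6.75 and 6.61 in WT_SD, 6.78, 6.51, 6.95 and 6.93 in CB1KO_SD, 6.68, 7.003, 6.998 and 6.84 in WT_HFHS and 6.41, 6.78, 6.64 and 6.71 in CB1KO_HFHS. The same slight elevation in WT_HFHS was seen, with CB1KO_HFHS replicates 2 and 4 inside its range. Cox7c, another small membrane subunit, differed by -0.24 ± 0.13 on HFHS (adjusted p = 0.602) and by 0.13 ± 0.13 on SD (adjusted p = 0.855), where its 3 probes did not share a sign (-0.13 to 0.13). On HFHS those probes gave -0.57 to -0.24. The remaining general subunits, Cox6b1 and Cox7b, differed by -0.27 and -0.26 on HFHS and by 0.08 and 0.07 on SD.

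For 3 positions of complex IV both the general and the striated muscle isoform were measured: Cox6a1 and Cox6a2, Cox7a2 and Cox7a1, and Cox8a and Cox8b. Cox6a2 read 9.19, 9.52, 9.16 and 9.07 in WT_SD, 9.16, 9.16, 9.29 and 9.36 in CB1KO_SD, 8.88, 9.20, 9.35 and 9.16 in WT_HFHS and 8.98, 9.34, 8.97 and 8.98 in CB1KO_HFHS. The Cox6a1 levels were 6.17, 6.42, 6.65 and 5.78 (WT_SD), 6.36, 5.63, 6.38 and 6.66 (CB1KO_SD), 6.49, 6.43, 6.36 and 6.23 (WT_HFHS) and 6.77, 6.21, 6.13 and 6.03 (CB1KO_HFHS). The muscle isoform Cox6a2 differed by 0.01 between genotypes on SD and by -0.08 on HFHS. Between the diets it differed by -0.09 in WT and by -0.18 in CB1KO. Cox6a1 varied more within groups than Cox6a2 (SD 0.34 against 0.17) and was highest on CB1KO_HFHS replicate 1. For Cox7a1 the arrays gave 8.34, 8.78, 8.43 and 8.57 in WT_SD, 8.68, 8.38, 8.72 and 8.67 in CB1KO_SD, 8.26, 8.76, 8.86 and 8.47 in WT_HFHS and 8.13, 8.69, 8.47 and 8.30 in CB1KO_HFHS. Cox7a2 read 6.36, 6.50, 6.08 and 6.20 in WT_SD, 6.18, 5.92, 6.46 and 6.61 in CB1KO_SD, 6.14, 6.40, 6.51 and 6.33 in WT_HFHS and 5.84, 6.05, 5.94 and 5.95 in CB1KO_HFHS. For Cox7a2 all 4 CB1KO_HFHS arrays lay below all 4 WT_HFHS arrays, at -0.40 ± 0.15 (SE, limma adjusted p = 0.417, exact permutation p = 0.0286), while the muscle isoform Cox7a1 overlapped at -0.19 ± 0.17 (adjusted p = 0.738). The Cox8b levels were 8.59, 8.75, 8.51 and 8.48 (WT_SD), 8.36, 8.32, 8.53 and 8.59 (CB1KO_SD), 8.19, 8.63, 8.72 and 8.50 (WT_HFHS) and 8.18, 8.53, 8.25 and 8.13 (CB1KO_HFHS). For Cox8a the arrays gave 5.92, 6.39, 6.33 and 6.06 in WT_SD, 6.47, 5.88, 6.31 and 6.35 in CB1KO_SD, 6.16, 6.40, 6.45 and 6.06 in WT_HFHS and 6.18, 6.29, 6.14 and 6.32 in CB1KO_HFHS. Genotype groups overlapped for both on both diets: Cox8b differed by -0.13 ± 0.14 on SD (adjusted p = 0.854) and -0.24 ± 0.14 on HFHS (adjusted p = 0.632), and Cox8a by 0.08 ± 0.15 and -0.04 ± 0.15.

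The difference between a muscle and a general isoform on the same array is not moved by a shift common to the whole array, though quantile normalization and the deposited score, which also change an array's spread, can move it. Its size depends on both probes and has no meaning alone, but it can be followed across groups. Cox6a2 minus Cox6a1 averaged 2.98 ± 0.33 (SD, n = 4) in WT_SD, 2.99 ± 0.38 in CB1KO_SD, 2.77 ± 0.28 in WT_HFHS and 2.78 ± 0.40 in CB1KO_HFHS. Cox7a1 minus Cox7a2 averaged 2.24 ± 0.18, 2.32 ± 0.20, 2.24 ± 0.13 and 2.45 ± 0.16 in the same order. Cox8b minus Cox8a averaged 2.41 ± 0.21, 2.20 ± 0.22, 2.24 ± 0.17 and 2.04 ± 0.18. The groups overlapped for all 3 pairs in each comparison of genotype within a diet or of diet within a genotype, and the shifts of the means ran from -0.21 to 0.21. Some of these shifts were as large as the SD within a group. The largest shifts between genotypes, 0.21 for Cox7a1 minus Cox7a2 and -0.20 for Cox8b minus Cox8a on HFHS and -0.21 for the latter on SD, had two-sided exact permutation p of 0.171, 0.171 and 0.286. Over the 12 comparisons of the 3 pairs the smallest Benjamini-Hochberg adjusted value was 0.588.

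**Figure D3:**
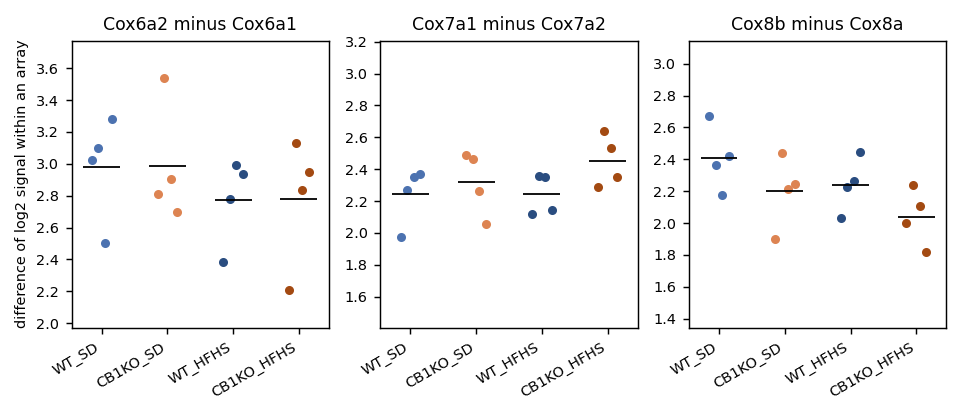
Log2 signal of the muscle isoform minus that of the general isoform on the same array, for 3 complex IV positions, with 1 point per array and a line at each group mean (n = 4). The axes cover the same span and do not start at 0, and the points of all groups overlap in each panel.

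Assembly factors of complex IV were measured as well: Cox10 and Cox15 make heme a, Cox11, Cox17, Sco1 and Sco2 deliver copper, and Surf1 acts in an early assembly step. On SD 4 of the 6 measured on all arrays were higher in CB1KO and 2 lower, and on HFHS 5 were lower and 1, Sco2, was not (0.01). Sco1 was the third gene whose groups did not overlap on HFHS: its WT_HFHS arrays ran from -1.75 to -1.53 and its CB1KO_HFHS arrays from -2.26 to -1.79, a difference of -0.37 ± 0.20 (SE, limma adjusted p = 0.596, exact permutation p = 0.0286). Cox10 varied most of the 33 genes, with a range of 2.39 over the 16 arrays, and differed by -0.51 ± 0.35 on HFHS (adjusted p = 0.679). Surf1 varied least, with a range of 0.47 and differences of -0.05 on both diets.

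Between the diets, most of these genes were slightly higher on HFHS in WT and lower on HFHS in CB1KO, without a call in either. In WT 27 of 33 were higher, with a median of 0.09, and in CB1KO 28 of 33 were lower, with a median of -0.18. Over all genes 59% were lower in WT and 59.4% in CB1KO, with medians of -0.06 and -0.07. The direction in WT was not stable, since with the deposited series table the median turned to -0.11. In WT the smallest p values belonged to Cox7c (0.21 ± 0.13, SE, limma adjusted p = 0.930), Sdhd (0.29 ± 0.19), Cox6c (0.22 ± 0.15) and Uqcrq (0.21 ± 0.16). In CB1KO they belonged to Cox7a2 (-0.35 ± 0.15, adjusted p = 0.491), Cox4i1 (-0.32 ± 0.14), Cycs (-0.34 ± 0.16) and Cox5a (-0.29 ± 0.14). The slow fibre genes ran the same way, with 11 of 11 higher on HFHS in WT (median 1.07) and 9 of 11 lower in CB1KO (median -1.68). In CB1KO 8 of 8 fibroblast and 9 of 9 macrophage markers were higher on HFHS, and in WT 8 of 8 and 1 of 9. None of these markers was called, and their part in the diet differences was not tested. No member's diet groups were free of overlap in either genotype, against 3.36% lower and 2.04% higher among all genes in WT and 1.25% and 2.48% in CB1KO.

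The interaction asks whether the genotype difference on HFHS differs from that on SD. All 33 estimates were below 0, with a median of -0.30 against -0.01 over all genes, of which 51.7% were below 0. The estimates share the same 16 arrays and are not independent. Below 0 were also 11 of 11 slow fibre genes (median -2.44) and 6 of 6 smooth muscle markers (median -0.75, with 2 at an unadjusted p below 0.05), while 8 of 8 fibroblast markers (median 0.31) and 8 of 9 macrophage markers (median 0.72) were above 0. So were 7 of 8 endothelial markers below 0 (median -0.29), 18 of 22 regulators of respiratory genes (-0.19) and 25 of 34 further genes of these complexes (-0.11). Adipocyte markers were above 0 for 8 of 9 (median 0.81) and fast fibre genes for 11 of 13 (0.15). Array means on SD ran from 1.71 to 2.61 in WT and 2.002 to 3.02 in CB1KO for smooth muscle markers, from 3.25 to 3.78 and 2.9996 to 3.96 for fibroblast markers, and from 0.50 to 1.83 and 0.48 to 1.54 for macrophage markers. None of these was called, and their part in the interaction estimates was not tested. Uqcrq had the smallest p, at -0.51 ± 0.22 (SE, limma adjusted p = 1.00), followed by Cox7c (-0.37 ± 0.19), Cox7a2 (-0.41 ± 0.22) and Cycs (-0.41 ± 0.22). Only Uqcrq had an unadjusted p below 0.05, against 1.53% of all genes with such a p and an estimate below 0. That count rose to 11 of 33 with normexp, 12 with quantile normalization and 12 with array weights, where 5%, 4.48% and 15% of all genes had such a p in either direction. With the deposited table it was 0 (3.3% of all genes) and with the signal spread as a covariate 1 (7.19%). With single arrays left out it ran from 0, as without WT_SD replicate 1 (3.25% of all genes), to 4. It was 4 without CB1KO_SD replicate 2 (6.71%) or WT_HFHS replicate 1 (3.39%). The estimate nearest to 0 was that of Surf1, at 0.00 when rounded. Under both quantile settings and with the deposited table, at least 32 of 33 estimates stayed below 0, and leaving out any 1 array kept the median between -0.39 and -0.22.

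Across arrays, genes of all 3 complexes moved together within groups. WT_SD replicate 2 held the highest value of its group for 25 of the 33 genes, and CB1KO_SD replicate 2, the array with the narrowest signal spread, the lowest for 24. WT_HFHS replicate 3 was highest in its group for 26 and replicate 1 lowest for 23, while CB1KO_HFHS replicate 2 was highest for 27 and replicate 1 lowest for 23. CB1KO_HFHS replicate 1, the array with the widest spread, held the lowest value of all 16 arrays for 19 genes, and WT_HFHS replicate 3 the highest for 15. The median of the 33 genes ran from 6.98 to 7.26 in WT_SD, from 6.74 to 7.23 in CB1KO_SD, from 6.90 to 7.27 in WT_HFHS and from 6.73 to 7.11 in CB1KO_HFHS, so the groups overlapped.

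**Figure D4:**
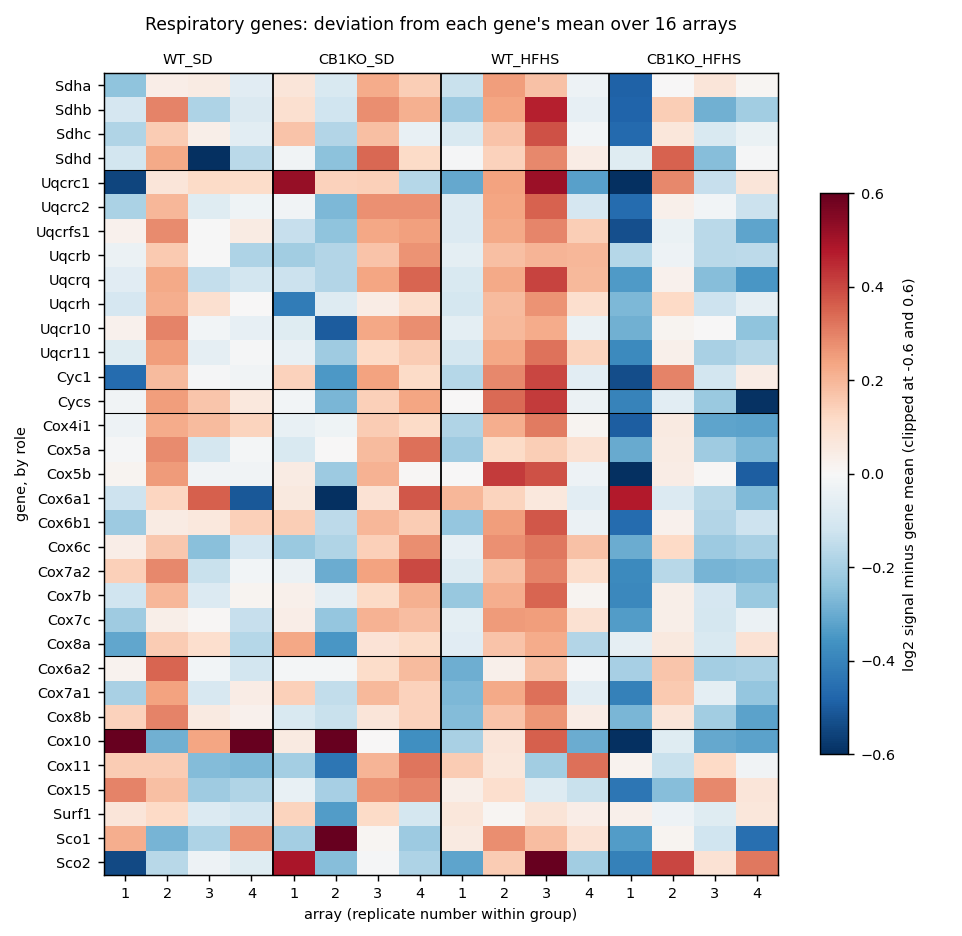
Deviation of the log2 signal from each gene's mean over the 16 arrays, with genes in rows ordered by role, arrays in columns by group and replicate number, and colours clipped at -0.6 and 0.6. Columns are mostly of 1 colour from complex II to complex IV, as in CB1KO_HFHS replicate 1, which is the lowest of 16 arrays for 19 genes, and WT_HFHS replicate 3, which is the highest for 15.

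The genotype difference on HFHS depended on single arrays, with a median between -0.31 and -0.17 and 2 to 14 genes at an unadjusted p below 0.05 when 1 array was left out. Without CB1KO_HFHS replicate 1 the median was -0.18, 30 of 33 genes were below 0 and 2 had an unadjusted p below 0.05. Without WT_HFHS replicate 3 the median was -0.17, with 30 of 33 and 2 again. Without WT_HFHS replicate 1 it was -0.31, with 33 of 33 below 0 and 14 at such a p, and without CB1KO_HFHS replicate 2 it was -0.30, with 33 and 10. Without WT_HFHS replicate 2 or CB1KO_HFHS replicate 4 there were 4 such genes. Of all genes, 8.9% had such a p in either direction without CB1KO_HFHS replicate 1 and 8.7% without WT_HFHS replicate 3. The share was 8.64% without WT_HFHS replicate 1 and 9.25% without CB1KO_HFHS replicate 2. It was 6.64% without WT_HFHS replicate 2 and 7.32% without CB1KO_HFHS replicate 4. The median of all genes moved too, to -0.06 without CB1KO_HFHS replicate 1 and to -0.12 without WT_HFHS replicate 3. On SD the median of 0.05 ran from -0.014 to 0.12 with 1 array left out, and lay below 0 without CB1KO_SD replicate 3 or replicate 4. CB1KO_HFHS replicate 1 also had the lowest mean of the 15 skeletal muscle markers (6.72, others 7.48 to 8.28) and the highest means of the adipocyte markers (4.36), the macrophage markers (2.15) and the fibroblast markers (4.79). Between the genotypes on HFHS, 11 of 15 skeletal muscle markers were lower in CB1KO, against 68.6% of all genes. The median difference of these markers was -0.07, against -0.14 over all genes. Single markers ran from -2.48 (Myh2, ± 1.49 SE, limma adjusted p = 0.646) to 0.16. Array means of the 15 markers were 7.64 to 8.23 in WT_HFHS and 6.72 to 8.28 in CB1KO_HFHS. They include fibre type genes such as Myh2 and so do not measure muscle content alone. Of the macrophage markers 8 of 9 were higher (0.50 to 1.36 against 1.14 to 2.15), of the fibroblast markers 7 of 8 (3.50 to 4.28 against 3.58 to 4.79) and of the adipocyte markers 6 of 9 (2.67 to 3.55 against 2.38 to 4.36). Smooth muscle markers were lower for 5 of 6 and their array means did not overlap (2.34 to 3.003 against 2.01 to 2.23). The mean of the 4 brown adipocyte markers tested was 0.91 on WT_SD replicate 3 and -2.87 to -0.44 on the other arrays. Of these, Ucp1 read 3.10 on WT_SD replicate 3, 0.75 on WT_HFHS replicate 2 and -6.68 to -1.13 on the others. Between the genotypes 2 of the 4 brown adipocyte markers were lower in CB1KO on SD and 3 on HFHS. None of these markers was called, and their part in the respiratory gene differences was not tested.

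The shared movement of these genes was small beside that of slow fibre genes, which mark slow fibres and not every oxidative fibre. Over the 16 arrays a respiratory gene spanned a median range of 0.78, whereas the 11 slow fibre genes spanned 1.21 (Tpm3) to 11.6 (Myl3), and the mean of the slow genes ran from -1.20 to 4.92. On SD all 11 slow fibre genes were higher in CB1KO, with a median of 2.54, and 0 of 11 were called (smallest limma adjusted p = 0.490, Tnni1), with 4 at an unadjusted p below 0.05 (9.03% of all genes). Their array means were -0.78 to 3.08 in WT_SD and 3.32 to 4.79 in CB1KO_SD, which do not overlap, while the respiratory medians of the same arrays did. Of the SD arrays, WT_SD replicate 1 and CB1KO_SD replicate 3 lay furthest apart in slow fibre genes, at -0.78 and 4.79, and their respiratory medians were 7.004 and 7.21. Of all 16 arrays, CB1KO_HFHS replicate 1 and WT_HFHS replicate 3 lay furthest apart, at -1.20 and 4.92, and they also held the lowest and the highest respiratory median, 6.73 and 7.27. On HFHS the slow fibre means ran from -0.06 to 4.92 in WT and from -1.20 to 4.68 in CB1KO. There 6 of 11 slow fibre genes were higher in CB1KO and 5 lower (median 0.06), whereas 32 of 33 respiratory genes were lower. Averaged over the diets all 11 slow fibre genes were higher in CB1KO (median 0.93), whereas 29 of 33 respiratory genes were lower. Of all genes 68.6% were lower on HFHS and 72.1% averaged over the diets.

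**Figure D5:**
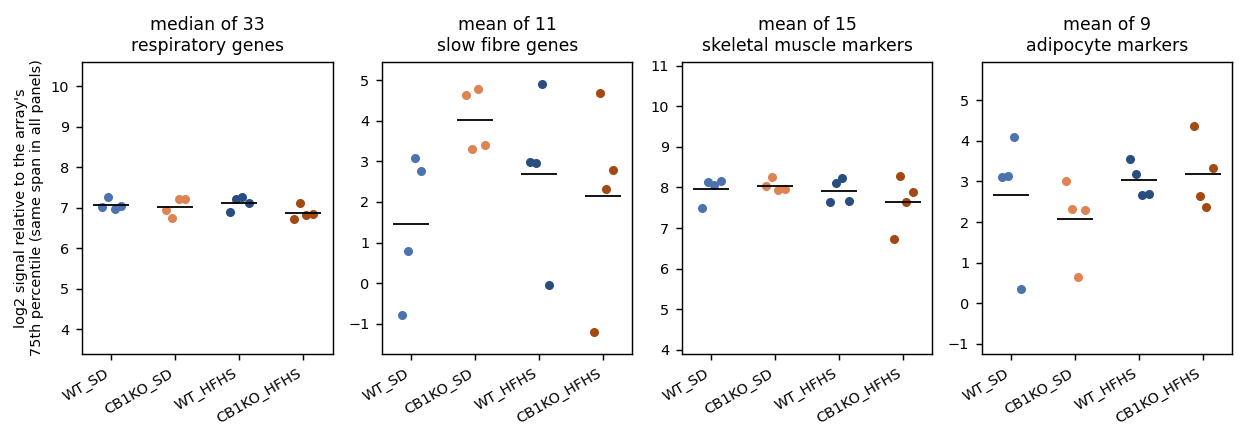
Level per array, as log2 signal relative to the array's 75th percentile, of the 33 respiratory genes (median), 11 slow fibre genes, 15 skeletal muscle markers and 9 adipocyte markers (means), with a line at each group mean (n = 4) and the same span on every axis. The respiratory median stays between 6.73 and 7.27 while the slow fibre mean runs from -1.20 to 4.92.

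The promoters of the respiratory genes were searched for motifs of factors known to act on nuclear genes of the respiratory chain. RefSeq windows on GRCm38.p6 were found for 25 of the 34 genes and not used for Uqcrc2, Cyc1, Uqcrb, Uqcrq, Cox17, Sdhc, Cox6c, Cox6a2 and Cox4i1. In the 250 bases before the start site, on both strands, the NRF-1 core GCGCANGCG was present in 4 of 25 (16%: Sdha, Sdhd, Cox6a1 and Cycs) and in 5.2% of 32851 windows of the same length. The Ets core CCGGAAG, bound by NRF-2 (GABP), was present in 7 of 25 (28%: Sdhd, Uqcrh, Uqcr11, Cox6a1, Cox6b1, Cox10 and Sco1) and in 6.9% of all windows. The motif TNAAGGTCA of oestrogen-related receptors and the YY1 motif AANATGGCG were in 0 of 25 and each in 1.1% of all windows, and the MEF2 motif in 0 of 25 and 2.9%. Different motifs did not overlap in the windows shown. A match is a description of letters and not a binding site.

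The windows of the complex II genes Sdha and Sdhd, of Cox6a1 and of Cycs are printed because they hold the NRF-1 core, and that of Cox7a2 because its groups, like those of Cycs, did not overlap on HFHS. They run 5′ to 3′ along the gene's strand, with capitals for the NRF-1 core or the Ets core read on either strand:
Sdha, chr13:74350241-74350490 (minus strand): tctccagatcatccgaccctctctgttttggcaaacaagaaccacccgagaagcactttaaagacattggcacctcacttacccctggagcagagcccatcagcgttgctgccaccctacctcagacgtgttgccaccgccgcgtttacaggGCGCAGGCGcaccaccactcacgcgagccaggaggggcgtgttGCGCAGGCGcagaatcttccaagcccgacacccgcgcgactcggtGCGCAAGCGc
Sdhd, chr9:50603850-50604099 (minus strand): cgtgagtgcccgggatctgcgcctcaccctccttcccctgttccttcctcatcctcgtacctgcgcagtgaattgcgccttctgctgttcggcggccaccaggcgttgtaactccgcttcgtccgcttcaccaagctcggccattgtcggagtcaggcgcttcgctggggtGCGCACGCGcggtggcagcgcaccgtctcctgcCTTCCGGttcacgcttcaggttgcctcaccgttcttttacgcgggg
Cox6a1, chr5:115348959-115349208 (minus strand): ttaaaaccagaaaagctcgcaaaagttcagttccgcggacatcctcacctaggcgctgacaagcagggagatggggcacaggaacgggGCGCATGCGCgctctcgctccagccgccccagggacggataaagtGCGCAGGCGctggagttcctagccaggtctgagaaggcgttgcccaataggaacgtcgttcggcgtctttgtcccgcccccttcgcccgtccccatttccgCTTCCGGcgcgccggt
Cycs, chr6:50566570-50566819 (minus strand): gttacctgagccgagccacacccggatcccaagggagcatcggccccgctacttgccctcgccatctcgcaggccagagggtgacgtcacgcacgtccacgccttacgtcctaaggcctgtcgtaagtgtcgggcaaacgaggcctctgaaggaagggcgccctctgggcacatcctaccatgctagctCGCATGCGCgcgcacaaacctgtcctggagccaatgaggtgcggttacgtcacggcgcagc
Cox7a2, chr9:79759854-79760103 (minus strand): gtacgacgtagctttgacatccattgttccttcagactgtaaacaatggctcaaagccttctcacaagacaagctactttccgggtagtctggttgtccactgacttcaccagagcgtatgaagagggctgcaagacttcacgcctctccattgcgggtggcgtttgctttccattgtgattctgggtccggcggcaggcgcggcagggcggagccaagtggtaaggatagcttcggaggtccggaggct
The Sdha window carries 3 NRF-1 matches, that of Sdhd an NRF-1 match followed by an Ets core, and that of Cox6a1 a pair of NRF-1 matches that overlap by 8 bases, another NRF-1 match and an Ets core near the start. The Cycs window holds 1 NRF-1 match and that of Cox7a2 none of the motifs searched. The window of Sco1, whose groups did not overlap on HFHS either, is not printed and holds an Ets core. Sdha and Sdhd had no unadjusted p below 0.05 in any comparison, nor had Cox6a1, whereas Cycs had such a p in 3 of the 6 comparisons.

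Other genes of the same complexes, a list of 39 further subunits and assembly factors of which 34 were tested, gave 0 calls in every comparison. On HFHS 29 of 34 were lower in CB1KO (median -0.19) and 7 had an unadjusted p below 0.05, and on SD 23 of 34 were lower (median -0.07) with 3 such p values. Over all genes 68.6% were lower and 9.4% had such a p on HFHS, and 67.9% and 9.03% on SD, so the count below 0 on SD was near that background. Averaged over the diets 29 of 34 were lower and 8 had an unadjusted p below 0.05, against 72.1% and 15% of all genes, and Coa7, a complex IV assembly factor, had the smallest p at -0.33 ± 0.09 (SE, limma adjusted p = 0.0888). Cmc4 (-0.33 ± 0.10, adjusted p = 0.139) and the complex III assembly factor Uqcc2 (-0.33 ± 0.11, adjusted p = 0.165) followed. The counts include Lyrm7, which acts in the insertion of the Rieske protein and is given no fold change, since it stood well above background on 4 arrays, 3 of WT_HFHS and 1 of CB1KO_HFHS. Cox6b2, a subunit best known from testis, went the other way on HFHS at 0.63 ± 0.24 (adjusted p = 0.409).

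Regulators of respiratory genes were followed through 22 tested genes, with 0 calls. On HFHS 18 of 22 were lower in CB1KO (median -0.21) and on SD 10 of 22 (median 0.03), against 68.6% and 67.9% of all genes, whose medians were -0.14 and -0.12. Esrra, the oestrogen-related receptor alpha that acts on many respiratory genes, had the smallest p on HFHS, at -0.56 ± 0.17 (SE, limma adjusted p = 0.268). Ppargc1a, its coactivator PGC-1alpha, was 0.41 ± 0.17 higher in CB1KO on SD (adjusted p = 0.511) and 0.55 ± 0.17 higher on HFHS than on SD in WT (adjusted p = 0.648). On SD the smallest p of the list was that of Ppara, 1.06 ± 0.42 higher in CB1KO (adjusted p = 0.474). Mef2a differed by -0.42 ± 0.20 between genotypes on HFHS (adjusted p = 0.558). Gabpa, the DNA-binding subunit of NRF-2, differed by -0.31 ± 0.16 on HFHS (adjusted p = 0.581) and Yy1 by -0.31 ± 0.17 (adjusted p = 0.606).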

How the data were processed

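Skeletal muscle RNA of 16 mice was measured on 1 one-colour array each. Scanner output was written by Feature Extraction 11.5.1.1, per the file headers. From it came the processed intensity of each spot (background-corrected, with no scaling between arrays) and the raw median intensity. Each value of the deposited series table is a score that equalled each array's log2 processed intensity centred on its mean and divided by its SD to within 0.00502.

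The log2 processed intensity minus the array's 75th percentile over non-control spots was analysed. Outlier spots were left out and replicate spots of a probe averaged. A probe had to be detected well above background on 4 or more arrays, and a gene with several such probes was represented by its brightest. Probes were named through a RefSeq table by the accession in the files (28026 of 55681), and the others kept the file's identifier. A model with 1 mean per group over all 16 arrays was fitted to 28972 genes with limma 3.58.1 (lmFit, eBayes) in R 4.3.3. Tests were two-sided, with Benjamini-Hochberg adjustment over all genes and a threshold of 0.05, and the fitting code was checked on simulated data. Single genes were also compared by exact permutation tests of 4 arrays against 4. Figures were drawn with matplotlib 3.10.9.

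The 34 genes, the other gene lists, the tests and the alternatives were chosen with earlier results of these data known. The genes described array by array are the 4 with the smallest p in each of the 6 comparisons and the 3 isoform pairs of complex IV, 18 in all, and of the other lists up to 4 genes with the smallest p in each comparison may be named. Sco1, Cox10 and Surf1 were described after their values were seen, as were Uqcr11, Cox6b1, Cox7b and the other probes of Sdhc, Uqcrb and Uqcr10. The array grid uses mm9 and the promoter windows GRCm38.p6, so coordinates are given for the windows only. The number of arrays limits the precision. Alternatives were normexp on the raw medians followed by quantile normalization, quantile normalization alone, the deposited score, other filters and probe rules, outlier spots kept, trended and robust variances, array weights, a replicate block, fits restricted to the groups compared, and omission of each array. Omission of the pair of arrays with the narrowest and widest signal, and that spread as a covariate, were added after the data were seen.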

Additional observations from a re-analysis of the deposited data

Results flagged for a closer look

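Among 108 sets of 4 arrays examined for 1 value apart from the other 3, 5 crossed Dixon's 95% criterion, about as many as chance gives (1 in 20). In WT_SD, Cox5b stood high on replicate 2, at 7.59. In CB1KO_SD, Cox7a1 stood low on replicate 2, at 8.38. In WT_HFHS, Cox5a stood low on replicate 1, at 8.35. In CB1KO_HFHS, Cox6a2 stood high on replicate 2, at 9.34, and Sdha low on replicate 1, at 5.65. These arrays also held the highest or lowest value of their group for most of the other respiratory genes. No interaction of a respiratory gene passed the test.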

How the results depend on the processing

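No respiratory gene was called under any alternative with 1 exception: with array weights Cycs (-0.53, adjusted p = 0.0218) and Cox7a2 (-0.38, adjusted p = 0.0390) passed on HFHS, a count of 2, where 2328 of all genes were called. The cause was not tested. Over all alternatives and omitted arrays, 6 of the genes described changed sign between genotypes on SD under some alternative or omitted array. Cox6a1 was at 0.10 with normexp, 0.11 with quantile normalization, 0.035 with the deposited table, 0.21 without the pair of arrays at the ends of the signal spread and 0.018 under array weights. Cox8b was at 0.10 with normexp and 0.031 with quantile normalization, and Uqcrh at 0.00 (0.00354) with the latter. Leaving out single arrays on SD moved Cox6a1 between -0.16 and 0.21, Cox6a2 between -0.047 and 0.11, Cox7a2 between -0.10 and 0.13 and Cox8a between -0.0082 and 0.20. On HFHS, Cox6a1 was at 0.038 with normexp and 0.029 with quantile normalization, Cox8a at 0.10 and 0.11, and between -0.11 and 0.025 with arrays left out. With the deposited table the diet comparison in WT gave -0.052 for Cox6c, 0.00 for Cox7c, -0.070 for Uqcrq and a median of -0.11, and that in CB1KO a median of -0.48.

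The number of all genes called moved more, in the order CB1KO against WT on SD, on HFHS and averaged, and HFHS against SD in WT and CB1KO. With normexp it was 23, 121, 391, unchanged at 0 and 19, with 1 for the interaction. Quantile normalization gave 23 on SD, 369 averaged and 2 in CB1KO, and the deposited scores gave 25 on SD and 3 in CB1KO. Without a filter 133 were called averaged and 4 in CB1KO, and with a filter on all arrays 7 on SD and 14 in CB1KO. The mean of a gene's probes gave 4 on SD and 3 in CB1KO, single probes 5 in CB1KO, and trended robust variances 6, 110, 350 and, in CB1KO, 1. Array weights gave 96, 2328, 2241, 235 and 142, with 10 for the interaction. Fitting only the groups compared gave 0 in CB1KO. Without that pair of arrays, chosen with the data seen, the counts were 233, 184, 870, 1 and 22, with 10 for the interaction, and with the spread as a covariate 148, 345 and 1734, and 15 in CB1KO. With single arrays left out they ran from 0 to 27, 15 to 126, 57 to 611, 0 to 1 and 0 to 28, and from 0 to 11 for the interaction.

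Same-numbered arrays of different groups had correlations of their deviations from -0.75 to 0.61, with 8 of 24 above 0.1. Arrays of different numbers were not set beside them, so these values cannot tell whether replicate numbers pair the arrays. With replicate number, which is also the slide column, as a replicate block, the calls over all genes were 36 on HFHS, 59 averaged and 0 for the diets in CB1KO, and 0 for the respiratory genes. Probes near background, as for Cox17, have no reliable fold change.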
